A study of Mus musculus with 23 samples.

Results

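The 43 genes described here make up a cell cycle and DNA replication module, listed by symbol and not by a cutoff on any measured value. All 43 were found among the 24940 gene symbols of each expression table, 1 row per symbol by the largest mean. They divide by textbook role into 24 genes whose products act in G2 and mitosis and 19 that act at the G1/S transition and in S phase. Their RNA was measured in whole tumors of 5 mouse models (B16, EO771, LL2, MC38 and Pan02, 3 tumors of each) and in cancer-associated fibroblasts (CAFs) sorted from 4 of these models (EO771, LL2, MC38 and Pan02, 2 libraries of each). B16 is the melanoma line B16-F10, EO771 the breast line EO771.LMB, LL2 (LL/2) a lung line, MC38 a colon line and Pan02 a pancreatic ductal line. All 5 lines come from C57BL/6 mice and were grown untreated in the flank of adult female C57BL/6 mice. The titles of the Pan02 tumors spell the name Pan01, while their cell line field reads Pan02. CAFs were sorted as live FAP+ cells (fibroblast activation protein, a surface protease) from the CD45- fraction of tumor digests, in 2 rounds of sorting per model. Each model is 1 transplanted cell line, so that the line, its tissue of origin and its growth in the host cannot be told apart.

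A dividing cell passes from G1 into S phase, where the genome is copied, and from G2 into mitosis, where the copies are separated. E2F transcription factors and cyclin E with its kinase start the G1/S program, in which replication origins are licensed by loading of the MCM helicase and in which the enzymes of nucleotide synthesis and the replication fork are made. Later in the cycle the MuvB complex together with FOXM1 and MYBL2 turns on the mitotic genes, many of which carry a CCAAT box and a cell cycle genes homology region (CHR) near their start sites. Because most of these RNAs are made only in cycling cells, their summed level is widely read as a measure of proliferation in a tissue. In a bulk sample, a smaller number of cycling cells and less RNA per cycling cell cannot be told apart.

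Promoter sequences are shown for 2 mitotic and 2 replication genes, because they carry the motifs by which the mitotic and G1/S genes are known to differ. RefSeq promoters of the build GRCm38.p6, 300 bases each, were at hand for 34 of the 43 genes (37 promoters), and the 250 bases before the start site are printed 5′ to 3′ on the strand of the gene. Capitals mark matches on either strand. The letters TTTGAA were searched as a CHR. A second spelling, which many genes of this class are known to carry, was searched as TTCGAA. The CCAAT box was searched by the letters of its name, on both strands. An E2F site was searched as TTTCCCGC, TTTCGCGC, TTTGCCGC or TTTGGCGC.
Cdk1, chr10:69352913-69353162, minus strand: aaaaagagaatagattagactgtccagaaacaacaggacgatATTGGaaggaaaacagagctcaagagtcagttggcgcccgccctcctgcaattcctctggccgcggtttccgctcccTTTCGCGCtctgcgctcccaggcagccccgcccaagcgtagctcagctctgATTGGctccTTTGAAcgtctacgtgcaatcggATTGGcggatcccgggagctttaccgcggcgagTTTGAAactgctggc
Cdc20, chr4:118437344-118437593, minus strand: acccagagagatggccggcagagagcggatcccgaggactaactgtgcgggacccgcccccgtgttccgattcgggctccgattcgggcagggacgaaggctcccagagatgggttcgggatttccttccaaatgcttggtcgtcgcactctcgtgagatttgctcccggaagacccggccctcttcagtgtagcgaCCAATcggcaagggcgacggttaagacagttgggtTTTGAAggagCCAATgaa
Mcm6, chr1:128359706-128359955, minus strand: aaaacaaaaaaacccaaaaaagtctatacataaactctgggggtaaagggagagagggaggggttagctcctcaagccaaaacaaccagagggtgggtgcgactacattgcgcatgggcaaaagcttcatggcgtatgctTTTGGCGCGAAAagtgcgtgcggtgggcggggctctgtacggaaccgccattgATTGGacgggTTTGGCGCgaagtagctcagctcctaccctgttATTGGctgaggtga
Mcm5, chr8:75109259-75109508, plus strand: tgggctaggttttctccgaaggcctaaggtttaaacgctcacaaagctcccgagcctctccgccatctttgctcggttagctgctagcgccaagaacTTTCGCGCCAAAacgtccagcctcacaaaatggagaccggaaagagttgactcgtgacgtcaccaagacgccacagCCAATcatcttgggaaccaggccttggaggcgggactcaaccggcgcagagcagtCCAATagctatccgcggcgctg
Cdk1 and Cdc20 each hold a CHR and CCAAT boxes close before the start site (the CHR nearest to it begins at base -15 in Cdk1 and -18 in Cdc20, the base before the start being -1), and Cdk1 has a single E2F site besides. Mcm6 and Mcm5 hold CCAAT boxes and no CHR, and in each of them an E2F site on one strand overlaps another on the opposite strand, so that both are capitalized as 1 run. Counted over the whole 300 bases, a CHR stood in 14 of 18 mitotic promoters (77.8%), against 3 of 19 G1/S promoters (15.8%) and 19.2% of all 32851 promoters. Both a CHR and a CCAAT box stood in 14 mitotic promoters (77.8%), against 7.52% of all. CCAAT boxes were in 16 mitotic promoters (88.9%) and 13 G1/S promoters (68.4%), against 37.4% of all. An E2F site was in 8 of 19 G1/S promoters (42.1%) and in 1 mitotic promoter (5.56%), that of Cdk1, against 2.26% of all. A match is a run of letters and not a measured binding site. The promoters of Ccne1, E2f1, Tyms, Tk1, Nusap1 and Birc5 held no match to any of these letters.

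The tumor table held expected counts that summed to between 10035180 and 21946495 per tumor over 1 transcript per gene, and levels are given as CPM (counts per 1000000) after TMM scaling. The CAF table held RPKM (reads per kilobase and 1000000 reads) with no depth of its own. Each library was checked against marker lists, summed as ppm, parts of each 1000000 of all RPKM. Melanocyte markers summed to between 23439 and 28382 ppm in B16 tumors and to at most 42.7 ppm elsewhere. The 10 fibroblast markers summed to 18283 to 21896 ppm in Pan02 tumors, against 197 to 6395 ppm in the tumors of the other models. In the sorted CAFs the same markers summed to 23354 to 26624 ppm in EO771, 18856 to 24054 in LL2, 4913 to 16961 in MC38 and 7238 to 11980 in Pan02. Pan02 CAFs were thus below whole Pan02 tumors in fibroblast markers, which goes against the label of a fibroblast sort. MC38 CAF library 2, at 4913 ppm, likewise lay below the highest MC38 tumor (6395 ppm), while its partner stood at 16961 ppm. Fap itself stood at 3.28 and 1.89 RPKM in the 2 Pan02 CAF libraries and at 1.93, 4.98 and 4.60 RPKM in the Pan02 tumors. In EO771 it was at 6.5 and 7.2 RPKM in CAFs and 0.32 to 0.65 in tumors. In LL2 it was at 9.2 and 9.9 against 0.95 to 1.11, and in MC38 at 11.4 and 4.29 against 0.59 to 3.11. Tumor RPKM were computed here and CAF RPKM deposited by the authors, so the Fap values need not share a total. Endothelial markers summed to 77.3 to 280.2 ppm in tumors and 17.4 to 134 ppm in CAFs, and leukocyte markers to 670 to 6437 ppm in tumors and 13.1 to 295 ppm in CAFs. Epithelial markers were at 1217 to 1250 ppm in EO771 CAFs, 2610 to 3420 ppm in Pan02 CAFs, 554 to 585 ppm in LL2 CAFs and 7.18 to 12.2 ppm in MC38 CAFs. In tumors they were at 1560 to 1653 ppm in EO771, 3251 to 5073 in Pan02 and 678 to 1029 in LL2. MC38 tumors held 10.6 to 85.5 ppm and B16 tumors 9.13 to 14.7 ppm.

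Tumors of the 5 models differed in every one of the 43 genes, but so did most genes (edgeR's quasi-likelihood F test with Benjamini-Hochberg adjustment over 15732 genes, adjusted p from 3.0e-08 to 0.0078 for the 43; 91.1% of all genes passed). Each model was then set against the mean of the other 4, a design in which the 5 comparisons share their tumors. Pan02 tumors stood lowest: all 43 genes were lower there, against 28.1% of all genes, and none was higher (32.5% of all genes). In B16 tumors 30 genes were higher (31.9% of all genes) and none lower (31.6%), and in MC38 tumors 25 were higher (27.0%) and 1 was lower (24.4%). EO771 tumors had 7 genes higher (27.2%) and 11 lower (27.0%), shares that do not stand far from the background. LL2 tumors had 6 higher (23.3%) and 4 lower (18.9%). Median log2 fold changes over the 43 genes were -1.13 in Pan02, 0.58 in B16, 0.55 in MC38, 0.09 in LL2 and -0.11 in EO771, while medians over all genes lay between -0.04 and 0.05. With a log2 fold change of at least 1 also required, 29 genes were lower in Pan02 (7.92% of all genes), 5 were higher in B16 (13.1%), 5 in MC38 (11.2%) and 2 in EO771 (9.71%), 1 was lower in EO771 (13.7%) and 0 in MC38 (8.23%), and none was called in LL2 in either direction (8.51 and 8.3%). Beside this order stand the fibroblast markers, highest in Pan02 tumors (18283 to 21896 ppm) and lowest in B16 tumors (197 to 747 ppm), and their part in the result was not tested. The labels do not tie a tumor to a mouse, and the p-values measure only the spread between these samples. Of the 127 calls of 1 gene in 1 model, 98 held under the other test, scaling, filter, transcript and replicate settings and with each tumor left out, and 42 reached a log2 fold change of at least 1. The counts of EO771 and LL2 rested on single tumors. Genes lower in EO771 numbered 6, 4 and 3 without EO771 tumor 1, 2 or 3, 7 without B16 tumor 1 or 3, and 7 without MC38 tumor 2. Genes higher in LL2 numbered 3 without LL2 tumor 2 and 12 without Pan02 tumor 1, and genes lower in LL2 numbered 2 without LL2 tumor 1 or 3. The other tumor counts stayed within 1.5 times with any tumor left out.

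**Figure D1:**
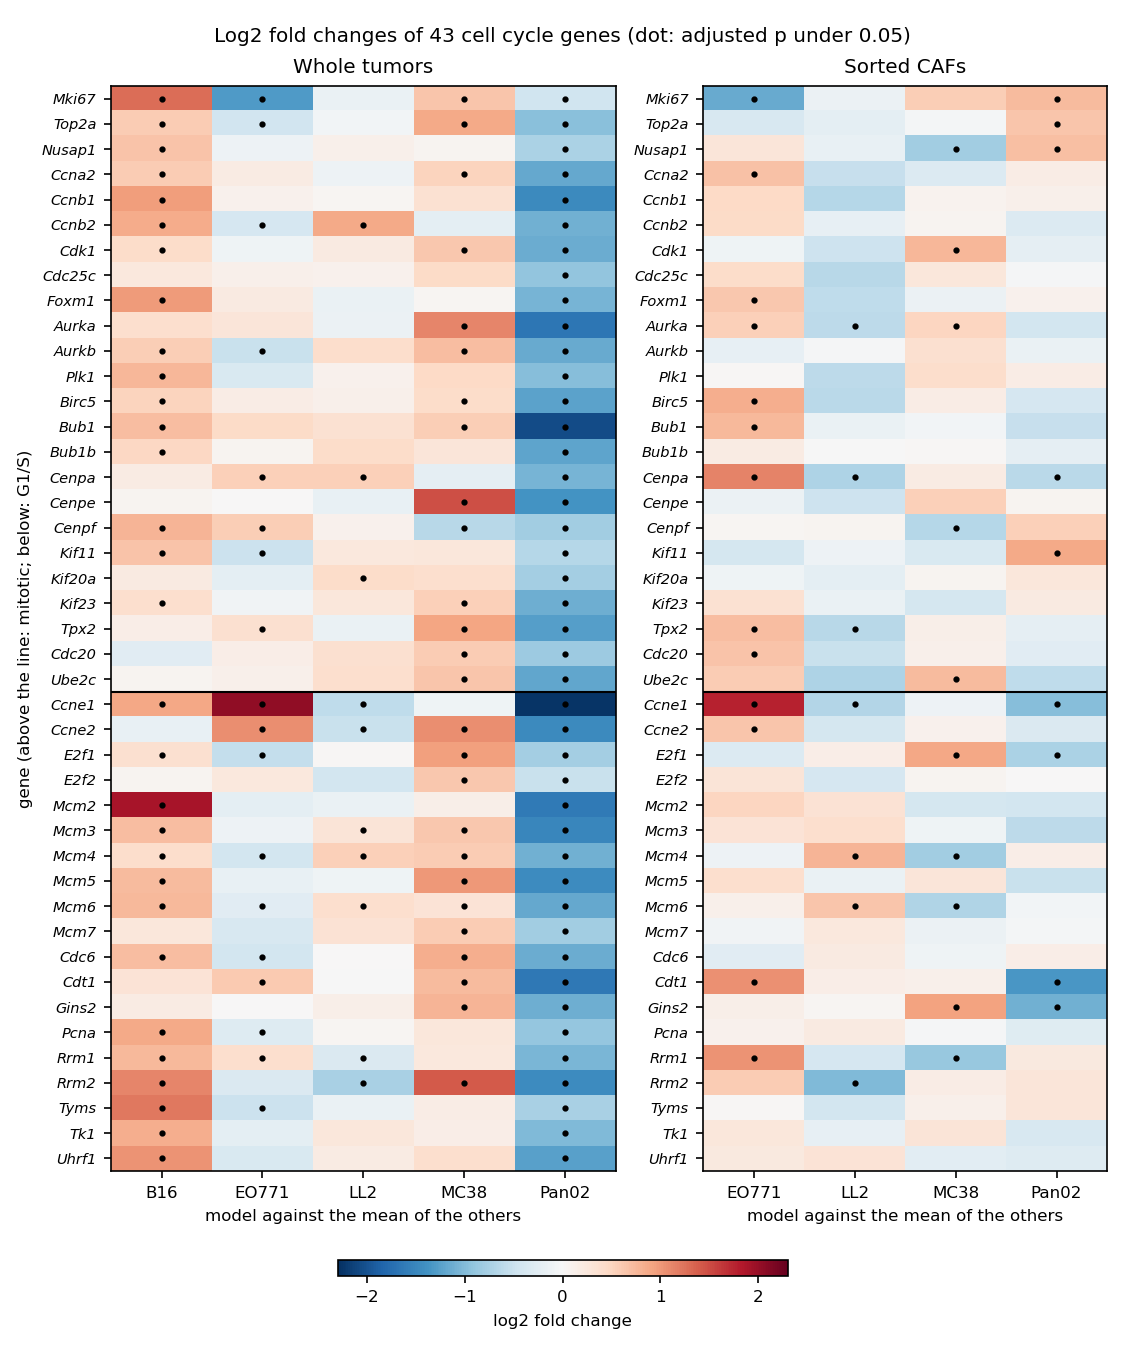
Heat map of the log2 fold change of each of the 43 genes (rows; mitotic genes above the line, G1/S genes below) in a model against the mean over the remaining models, in whole tumors (left) and sorted CAFs (right), with a dot where the adjusted p was under 0.05. The Pan02 tumor column is blue and dotted in all 43 rows, the B16 and MC38 tumor columns are mostly red, and the CAF columns carry few dots.

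Mki67, Top2a and Nusap1 mark proliferating cells and their chromosomes: Ki-67 coats mitotic chromosomes, topoisomerase IIα untangles DNA and NUSAP1 binds spindle microtubules. Mki67 was at 356, 244 and 306 CPM in B16, 70.9, 68.6 and 77.6 in EO771, 153, 125 and 135 in LL2, 254, 199.96 and 179 in MC38, and 144, 116 and 85.6 in Pan02. It was the single gene of the 43 whose lowest model was EO771 and not Pan02, and EO771 tumors lay below every other tumor. The log2 fold change of Mki67 was -1.3 in EO771 (SE 0.16, adjusted p = 2.0e-05) and 1.28 in B16 (SE 0.14, adjusted p = 2.8e-06), while the fall in Pan02 was the smallest of the 43 (-0.46, SE 0.15, adjusted p = 0.019) and was not called without Pan02 tumor 2 or 3. Top2a was at 559, 359 and 510.3 CPM in B16, 287, 266 and 256 in EO771, 338, 301 and 362 in LL2, 608, 576 and 498 in MC38, and 254, 203 and 149 in Pan02. Levels were higher in MC38 (0.88, SE 0.14, adjusted p = 0.00016) and in B16 (0.58, SE 0.14, adjusted p = 0.0027) although B16 tumor 2 lay below LL2 tumor 3. Top2a was lower in Pan02 (-0.96, SE 0.16, adjusted p = 0.00015) and in EO771 (-0.44, a call lost without any 1 of the EO771 tumors), so that Ki-67 and topoisomerase II RNA ranked EO771 and Pan02 tumors in opposite order. Nusap1 ranged from 19.4 CPM in Pan02 to 59.0 CPM in B16 and was higher in B16 and lower in Pan02.

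**Figure D2:**
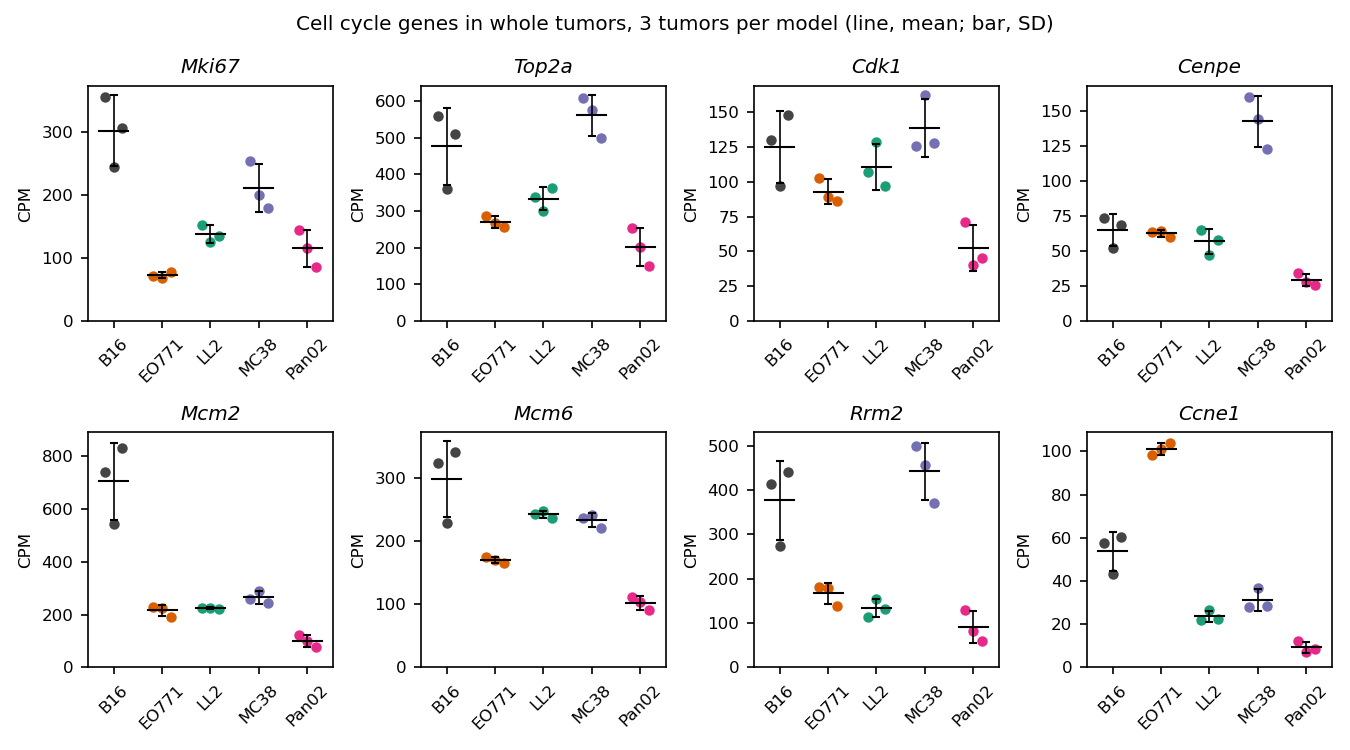
CPM of 8 of the genes in each of the 15 tumors (points), with the mean (line) and SD (bar, n = 3) of each model on linear axes that start at 0. Pan02 has the lowest mean in all but Mki67, B16 stands apart in Mcm2, MC38 in Cenpe, and EO771 in Ccne1.

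Cyclins A2, B1 and B2 with CDK1, the phosphatase CDC25C that switches CDK1 on and the transcription factor FOXM1 drive entry into mitosis. All 6 genes were lower in Pan02 (28.1% of all genes), 5 were higher in B16 (31.9%), 2 in MC38 (27.0%) and 1 in LL2 (23.3%). The MC38 and LL2 counts lie near those shares. Ccna2, 12.5% of whose exon bases are shared with another gene, was at 219, 147 and 211 CPM in B16, 171, 155 and 139 in EO771, 123, 144 and 126 in LL2, 191, 205 and 162 in MC38, and 87, 70.5 and 61.2 in Pan02. Ccnb1 was at 58.8, 41.6 and 67 CPM in B16, 40.1, 35.5 and 28.6 in EO771, 35.6, 38 and 27.4 in LL2, 41.3, 42.8 and 35.7 in MC38, and 17.3, 13.9 and 12.6 in Pan02. In both genes the 3 Pan02 tumors lay below the other 12, with log2 fold changes of -1.17 (SE 0.14, adjusted p = 1.1e-05) and -1.46 (SE 0.17, adjusted p = 7.8e-06). Ccnb2 split the models in another way, at 103, 80.5 and 104 CPM in B16, 53.6, 46.2 and 43.8 in EO771, 101, 107 and 82.3 in LL2, 53.2, 58 and 47 in MC38, and 44.1, 26.2 and 26.1 in Pan02. B16 and LL2 tumors lay high and the other models low, with log2 fold changes of 0.86 in B16 (SE 0.14, adjusted p = 0.00015) and 0.87 in LL2 (SE 0.14, adjusted p = 0.00028), the largest rise of the module in LL2. Cdk1 was at 130.1, 97.1 and 148 CPM in B16, 103, 89.2 and 86.6 in EO771, 107, 129 and 96.8 in LL2, 126, 163 and 128 in MC38, and 71.5, 40.4 and 45.1 in Pan02. Its Pan02 tumors lay below the other 12 (-1.14, SE 0.18, adjusted p = 0.0001) and the other models overlapped. Cdk1 was higher in MC38 (0.61, not called without MC38 tumor 2) and in B16 (0.43, not called without B16 tumor 1 or 3, EO771 tumor 3 or Pan02 tumor 3). Foxm1 was at 217, 183 and 249 CPM in B16, 148, 153 and 120.2 in EO771, 105, 124 and 116 in LL2, 128, 138 and 118 in MC38, and 95.1, 66.3 and 45.7 in Pan02. Foxm1 was higher in B16 (0.99, SE 0.15, adjusted p = 8.0e-05), where all 3 tumors exceeded the other 12, and did not pass the test in MC38 (0.04, adjusted p = 0.86). Cdc25c (12.7% of exon bases lie in another gene) was lower in Pan02 (-0.91) and not called elsewhere.

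The kinases Aurora A, Aurora B and PLK1 build and orient the spindle, survivin (Birc5) guides Aurora B, and BUB1 and BUB1B hold anaphase until chromosomes are attached. The 6 genes were lower in Pan02 (28.1% of all genes), 5 were higher in B16 (31.9%) and 4 in MC38 (27.0%). Aurka was at 88.2, 65.3 and 104 CPM in B16, 90.0, 82.6 and 69.8 in EO771, 62.9, 70.9 and 60.0 in LL2, 121, 146 and 120.4 in MC38, and 38.1, 20.9 and 23.9 in Pan02. MC38 tumors lay above and Pan02 tumors below all others, with log2 fold changes of 1.12 (SE 0.15, adjusted p = 4.7e-05) and -1.65 (SE 0.19, adjusted p = 5.7e-06), and B16 did not pass (0.38, adjusted p = 0.052). Plk1 was at 152, 108 and 159 CPM in B16, 79, 78.5 and 68.5 in EO771, 103, 97.6 and 87.1 in LL2, 107, 140.1 and 106 in MC38, and 79.3, 46.8 and 32.9 in Pan02. Plk1 was higher in B16 (0.77, SE 0.19, adjusted p = 0.0027) and lower in Pan02 (-0.98, SE 0.21, adjusted p = 0.0013), although Pan02 tumor 1 exceeded the 3 EO771 tumors. Bub1 was at 91.3, 52.4 and 74.7 CPM in B16, 71.2, 59.9 and 56 in EO771, 61.4, 66.7 and 50.9 in LL2, 68.6, 69.4 and 63.2 in MC38, and 22.4, 12.5 and 11.9 in Pan02. Its fall in Pan02 was the second of the module in size (-2.06, SE 0.21, adjusted p = 2.8e-06), with every Pan02 tumor below the other 12. Aurkb was lower in EO771 as well as in Pan02 (-0.52 and -1.16), the former a call lost without EO771 tumor 2 or 3.

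Kinetochore and spindle genes attach chromosomes and move them: CENPA marks the centromere, CENPE and CENPF work at the kinetochore, KIF11, KIF20A and KIF23 are motor proteins and TPX2 activates Aurora A. All 7 were lower in Pan02 (28.1% of all genes), and 3 each were higher in B16 (31.9%), EO771 (27.2%) and MC38 (27.0%). A count of 3 in 7 does not stand far from the last 3 shares. Cenpe was at 73.8, 52.5 and 69 CPM in B16, 63.6, 64.7 and 60.0 in EO771, 65.3, 47.2 and 58.2 in LL2, 160.2, 145 and 123 in MC38, and 34.3, 28 and 25.6 in Pan02. MC38 tumors were at least 123 CPM and no other tumor exceeded 73.8 CPM, the largest rise of the module in MC38 (1.48, SE 0.11, adjusted p = 3.4e-07). Cenpf moved the other way and was at 118, 75.9 and 103 CPM in B16, 96.4, 84.4 and 81.6 in EO771, 76.4, 54.3 and 71.8 in LL2, 47.8, 46.5 and 40.3 in MC38, and 48.5, 35.9 and 38.5 in Pan02. It was the 1 gene of the 43 that was lower in MC38 (-0.64, SE 0.14, adjusted p = 0.0021), and it was higher in B16 (0.79) and EO771 (0.56). Cenpa was higher in EO771 (0.54, lost without EO771 tumor 1) and LL2 (0.55, lost without LL2 tumor 2), at 76.8 to 105 and 78.8 to 108 CPM. Tpx2 was higher in MC38 (191 to 224 CPM; 0.91, SE 0.12, adjusted p = 3.1e-05). Kif20a shares 29.3% of its exon bases with Cdc23, and its rise in LL2 (0.42, adjusted p = 0.049) was lost under 16 of the alternative settings and left-out tumors.

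CDC20 activates the anaphase-promoting complex and UBE2C is its ubiquitin-conjugating enzyme. Both were higher in MC38 (27.0% of all genes) and lower in Pan02 (28.1%) and were called in no other model. Cdc20 was at 118, 90.3 and 147 CPM in B16, 172, 149.9 and 124 in EO771, 167, 173 and 162 in LL2, 186, 204 and 175 in MC38, and 119, 78.2 and 61.7 in Pan02. LL2 tumors lay close to MC38 and 1 Pan02 tumor overlapped B16, and the log2 fold changes were 0.58 in MC38 (lost without MC38 tumor 2) and -0.83 in Pan02 (SE 0.18, adjusted p = 0.0013). Ube2c, which shares 22.8% of its exon bases with Tnnc2, stood at 46.5 to 77.1 CPM in Pan02 and 147 to 178 CPM in MC38.

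Cyclins E1 and E2 activate CDK2 at the G1/S boundary, and E2F1 and E2F2 turn on the genes of S phase. Ccne1 was at 57.6, 43.3 and 60.3 CPM in B16, 98.3, 101 and 104 in EO771, 22.2, 26.6 and 22.2 in LL2, 28, 36.9 and 28.3 in MC38, and 12.3, 7.22 and 8.34 in Pan02. EO771 tumors lay between 98.3 and 104 CPM, above all others, and Pan02 tumors between 7.2 and 12.3 CPM, below all others, so that the means of these models differed by 10.9 times, more than for any other of the 43 genes. The log2 difference was 2.04 in EO771 (SE 0.13, adjusted p = 4.1e-08), -2.26 in Pan02 (SE 0.17, adjusted p = 1.8e-07), 0.89 in B16 (SE 0.14, adjusted p = 7.6e-05) and -0.58 in LL2 (SE 0.15, adjusted p = 0.0078). Ccne2, which shares 17.4% of its exon bases with Ints8, was at 22.2, 14.7 and 17.3 CPM in B16, 32.6, 36.3 and 38.7 in EO771, 18.1, 15.1 and 11.5 in LL2, 36.3, 38.1 and 33 in MC38, and 9.33, 7.56 and 9.48 in Pan02. EO771 and MC38 tumors lay together above the rest, with the same log2 fold change of 1.07 (SE 0.13, adjusted p = 1.8e-05 in EO771). E2f1 was at 85, 71 and 97.9 CPM in B16, 54.5, 49.2 and 49.1 in EO771, 65, 72.9 and 72.6 in LL2, 115, 133 and 103 in MC38, and 42.4, 44.7 and 48.3 in Pan02. E2f1 was higher in MC38 (0.94, SE 0.09, adjusted p = 2.8e-06), where each tumor exceeded the other 12, and lower in EO771 (-0.55, SE 0.10, adjusted p = 0.00052) and Pan02 (-0.77, SE 0.10, adjusted p = 2.8e-05), whose tumors were close to each other. E2f2 was at 25.8, 19.6 and 30.5 CPM in B16, 26.3, 31.4 and 25.6 in EO771, 16.9, 18.9 and 22.4 in LL2, 30.3, 38.9 and 34.2 in MC38, and 12.8, 19.4 and 22.9 in Pan02. The models overlapped, and the rise in MC38 (0.62) and the fall in Pan02 (-0.51, lost without Pan02 tumor 1) were the 2 calls made for it.

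MCM2 to MCM7 form the replicative helicase, CDC6 and CDT1 load it onto origins and GINS2 is part of its active form. Of these 9 genes, 8 were higher in MC38 (27.0% of all genes), 6 in B16 (31.9%) and 3 in LL2 (23.3%). All 9 were lower in Pan02 (28.1%), and the LL2 count does not stand far from its share. Mcm2 was at 738, 543 and 830.0 CPM in B16, 230.3, 226 and 192 in EO771, 226, 226 and 223 in LL2, 259, 290.1 and 245 in MC38, and 121, 101 and 76.5 in Pan02. B16 tumors held at least 543 CPM where no other tumor exceeded 290.1 CPM (1.90, SE 0.12, adjusted p = 1.3e-08), the largest rise of the module in B16, and MC38 did not pass for this subunit (0.13, adjusted p = 0.43). Among the other subunits, log2 fold changes in B16 ran from 0.25 for Mcm7 to 0.75 for Mcm6. Mcm5 was at 291, 207 and 327 CPM in B16, 171, 179.8 and 152 in EO771, 167, 182 and 172 in LL2, 309, 363 and 293 in MC38, and 101, 83 and 63.4 in Pan02. This subunit was higher in MC38 (1.00, SE 0.13, adjusted p = 3.1e-05) and in B16 (0.72, SE 0.13, adjusted p = 0.00035). Mcm6 was at 323, 229 and 341 CPM in B16, 174, 170.0 and 165 in EO771, 243, 248 and 236 in LL2, 237, 242 and 220.5 in MC38, and 112, 103 and 90.8 in Pan02. Mcm6 was higher in B16 (0.75, SE 0.10, adjusted p = 1.5e-05) and LL2 (0.38, SE 0.10, adjusted p = 0.0076), and its changes in MC38 (0.31) and EO771 (-0.26, adjusted p = 0.048) were lost on leaving out single tumors, the latter under 16 settings. Mcm4 was higher in LL2, MC38 and B16 alike (0.55, 0.58 and 0.40) and lower in EO771 (-0.42). Cdc6 was at 51.4, 33.1 and 56.9 CPM in B16, 24.7, 25.8 and 25.1 in EO771, 35, 30.3 and 30.4 in LL2, 48.6, 55.8 and 46.5 in MC38, and 21.3, 16 and 13.2 in Pan02. Cdt1 was at 161, 126 and 215 CPM in B16, 219.8, 199 and 172 in EO771, 137, 152 and 133 in LL2, 193, 243 and 196 in MC38, and 73.3, 51.1 and 44.5 in Pan02. Cdc6 was higher in B16 (0.71) and MC38 (0.83), whereas Cdt1 was higher in EO771 (0.61, SE 0.15, adjusted p = 0.0044) and MC38 (0.73, SE 0.15, adjusted p = 0.0013) and did not pass in B16 (0.31, adjusted p = 0.095). Gins2 shares 67.3% of its exon bases with Gse1 and its values are uncertain for that reason.

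PCNA is the sliding clamp of the fork, RRM1 and RRM2 form ribonucleotide reductase, thymidylate synthase (Tyms) and thymidine kinase (Tk1) supply thymidine nucleotides, and UHRF1 carries DNA methylation through replication. All 6 were higher in B16 (31.9% of all genes) and lower in Pan02 (28.1%), and Rrm2 alone was also higher in MC38 (27.0%). Pcna was at 230.0, 179 and 244 CPM in B16, 121, 119 and 102 in EO771, 124, 154 and 133 in LL2, 141, 175 and 146 in MC38, and 84.7, 75.1 and 85.8 in Pan02. Pcna was higher in B16 (0.88, SE 0.10, adjusted p = 4.7e-06), where every tumor lay above the other 12. Rrm2 was at 415, 275 and 441 CPM in B16, 183, 180.1 and 139.6 in EO771, 114, 154 and 131 in LL2, 499, 456 and 371 in MC38, and 130.4, 82.3 and 59.4 in Pan02. It was higher in MC38 (1.41, SE 0.18, adjusted p = 3.0e-05) and B16 (1.12, SE 0.19, adjusted p = 0.00014), whose tumors overlapped, and lower in LL2 (-0.75, lost without LL2 tumor 1). Tyms, counted on a non-coding RefSeq record, was at 65.4, 46.2 and 71 CPM in B16, 24.8, 24 and 22.1 in EO771, 29.2, 30.3 and 26.4 in LL2, 32.4, 38.7 and 31.6 in MC38, and 26, 16.9 and 18.4 in Pan02. Every B16 tumor lay above the other 12 (1.21, SE 0.13, adjusted p = 2.7e-06). Tk1 was at 119.5, 89.5 and 127 CPM in B16, 70.8, 63.4 and 52.5 in EO771, 71, 102 and 71.3 in LL2, 69.2, 90.5 and 70.9 in MC38, and 52.4, 37.5 and 31.3 in Pan02. Uhrf1 was at 297, 216 and 343 CPM in B16, 142, 131 and 123 in EO771, 179, 183 and 169.9 in LL2, 199.7, 216 and 179.8 in MC38, and 112, 75.5 and 51.7 in Pan02. Both were higher in B16 (0.83, SE 0.16, adjusted p = 0.00044, and 1.04, SE 0.16, adjusted p = 9.3e-05). Rrm1 was higher in EO771 (0.39) besides B16 (0.75), and lower in LL2 (-0.33), a call lost without any 1 of the LL2 tumors.

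The separation between tumors of different models was uneven. The 3 Pan02 tumors lay below the other 12 in 30 of the 43 genes (9.52% of all genes), MC38 tumors lay above the other 12 in 6 (7.68%), B16 tumors in 5 (14.5%) and EO771 tumors in 1, Ccne1 (9.75%), with Mki67 the 1 gene in which EO771 tumors lay below (7.02%). No gene had its 3 LL2 tumors above the rest (5.16%) or its 3 MC38 tumors below it (6.09%). Means ran from highest to lowest model by 1.87 times for E2f2 up to 10.9 times for Ccne1. Within a model, the highest tumor exceeded the lowest by a median of 1.67 times over the 43 genes in Pan02 and 1.49 times in B16, and by 1.20 to 1.21 times in EO771, LL2 and MC38. Over all genes these medians were 1.42 in Pan02, 1.25 in B16, 1.15 in EO771, 1.29 in LL2 and 1.23 in MC38. Pan02 tumors were thus the most spread over all genes as well. Pan02 tumor 1 was the highest of its model in 38 genes, and B16 tumor 2 was the highest of its model in none. With either of these left out, as with any other tumor left out, the genes lower in Pan02 numbered 42 or 43 and the genes higher in B16 numbered 24 to 33.

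Levels of mitotic and G1/S genes were compared within each tumor, as the median of log2(CPM + 1) values centred on each gene's mean over the 15 tumors, with no test. The difference of mitotic minus G1/S medians was 0.36, 0.18 and 0.17 in the EO771 tumors and 0.28, 0.11 and 0.08 in the LL2 tumors. It was -0.21, -0.12 and -0.24 in B16 and -0.08, -0.11 and -0.09 in MC38. These 2 pairs of models did not overlap: B16 and MC38 tumors leaned to replication genes and EO771 and LL2 tumors to mitotic genes, relative to the mean of the 15 tumors. Pan02 tumors stood on both sides, at 0.27, -0.04 and -0.08. Counted per gene, 14 of 19 G1/S genes and 16 of 24 mitotic genes were higher in B16 (31.9% of all genes), and 12 and 13 in MC38 (27.0%). In EO771, 6 G1/S genes and 5 mitotic genes were lower (27.0% of all genes), and 4 and 3 were higher (27.2%). The EO771 counts lie near or below those shares.

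**Figure D3:**
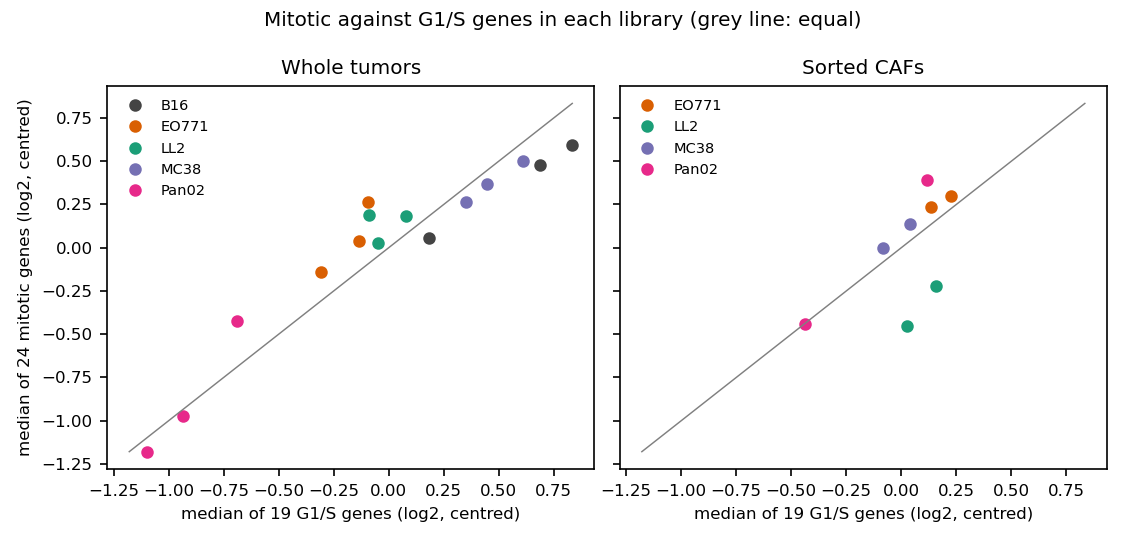
Median of the 24 mitotic genes against the median of the 19 G1/S genes in each library, in log2 units centred on each gene's mean within whole tumors (left, CPM) or sorted CAFs (right, RPKM), with a grey line where the medians are equal. Tumors spread along the line from Pan02 to B16 and MC38, and both LL2 CAF libraries lie under it.

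Across the 15 tumors, 1 mean of the module describes most but not all of its genes. Pearson's r with the mean of the other 42 genes, in log2(CPM + 1) and given as a description, was 0.98 for Ccna2 and 0.97 for Cdk1, Ccnb1 and Mcm5. It was lowest for E2f2 (0.52), Cenpf (0.54), Mki67 (0.57), Ccne2 (0.63) and Ccne1 (0.64). The points share library, scaling and 3 tumors per model. Of all tested genes outside the module, the 10 with the highest r to the module's mean were Mcm10 (0.99), Traip, Nup133, Kif15, Cenph, Ercc6l, Nsd2, Srsf7, Gart and Mad2l1 (0.97), and 4 of them belong to the further cell cycle genes described below. Mcm10, a replication initiation factor, averaged 65.4 CPM in B16, 55.5 in MC38, 36.6 in EO771, 35.2 in LL2 and 15.8 in Pan02.

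Other genes of the pathway numbered 157 in 10 lists. Of these, 125 were lower and 12 higher in Pan02, 83 higher and 15 lower in MC38, 81 higher and 20 lower in B16, 38 higher and 31 lower in EO771 and 33 higher and 20 lower in LL2, against the shares of all genes given above. In Pan02, 17 of 18 origin recognition and helicase genes, 22 of 24 polymerase, clamp loader and ligase genes, 22 of 24 kinetochore genes and 19 of 19 spindle motor and cytokinesis genes were lower. So were 9 of 11 condensin and separase genes, 10 of 15 genes of the anaphase-promoting complex (1 higher), 8 of 13 mitotic kinases and phosphatases (2 higher), 5 of 9 G1 cyclins and their kinases, and 11 of 16 regulators of the Rb, E2F and MuvB group (4 higher). Of the 8 inhibitors of cyclin-dependent kinases, 5 were higher (32.5% of all genes) and 2 lower (28.1%) in Pan02. Among them Cdkn2c (p18) was at 120.3, 130.3 and 104 CPM in B16, 22.2, 22 and 18.9 in EO771, 57.1, 46.7 and 49.7 in LL2, 37.9, 49.2 and 40.9 in MC38, and 119, 92.7 and 78 in Pan02. Cdkn2c was higher in B16 (1.36) and Pan02 (1.00) and lower in EO771 (-1.75), so that the models at both ends of the module shared a high level. Ccng2, an atypical cyclin linked to growth arrest, was at 33.6, 37.7 and 19.5 CPM in B16, 23.9, 20.0 and 17.5 in EO771, 47.9, 46.8 and 29.2 in LL2, 19.7, 18.2 and 23 in MC38, and 86.1, 59.2 and 56.2 in Pan02 and was higher in Pan02 (1.32). Mybl2, the B-Myb subunit that works with MuvB, was at 39.2, 28.4 and 44.4 CPM in B16, 70.8, 66.4 and 53.6 in EO771, 47.9, 65.5 and 61.4 in LL2, 261, 268 and 212 in MC38, and 24.1, 16 and 10.0 in Pan02. It was higher in MC38 (2.66, SE 0.17, adjusted p = 8.7e-08) and lower in Pan02 (-2.19, SE 0.24, adjusted p = 3.9e-06), with the other 3 models between them, of which B16 was also lower (-0.75). Cdkn1a (p21) was at 133, 115 and 162 CPM in B16, 601, 547 and 568 in EO771, 448, 564 and 430.4 in LL2, 167, 129.7 and 145 in MC38, and 113, 131 and 143 in Pan02. Cdkn1a was higher in EO771 (1.61) and LL2 (1.29) and lower in Pan02 (-1.08), B16 (-0.98) and MC38 (-0.84). Cdk6 was at 207 to 222 CPM in EO771 and 21.6 to 25.7 CPM in B16, where its log2 fold changes were 1.65 and -2.27. Cdk2, the partner of cyclins E and A, was at 646, 698 and 699.8 CPM in B16, 35.4, 37.2 and 37.1 in EO771, 49.9, 53.6 and 47.5 in LL2, 78.3, 87.7 and 69.2 in MC38, and 38.8, 31.3 and 35.2 in Pan02. Its rise in B16 (3.84, SE 0.07, adjusted p = 9.9e-14) exceeded that of any of the 43 genes, but Cdk2 lies next to and overlaps the melanocyte gene Pmel on the opposite strand (34 exon bases in common) and reads were counted without strand, so that reads of the 2 genes cannot be told apart there.

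In sorted CAFs, 19 of the 43 genes differed among the 4 models (limma on log2(RPKM + 1) with Benjamini-Hochberg adjustment over 13598 genes), where 80.4% of all genes did. Against the mean of the other 3 models, EO771 CAFs had 12 genes higher (24.5% of all genes) and 1 lower (27.9%), LL2 CAFs 2 higher (14.7%) and 5 lower (18.3%), MC38 CAFs 5 higher (28.6%) and 5 lower (31.3%), and Pan02 CAFs 4 higher (27.1%) and 5 lower (26.5%). These shares lie near or below the background. Median log2 fold changes were 0.30 in EO771, 0.07 in MC38, -0.16 in Pan02 and -0.19 in LL2. At a log2 fold change of at least 1, 4 genes were higher (8.05% of all genes) and 1 lower (7.06%) in EO771, 2 lower in Pan02 (8.41%) and 1 lower in LL2 (5.13%), with none in MC38 in either direction (10.9 and 9.87%) and none higher in Pan02 (9.73%) or LL2 (3.89%). With 2 libraries per model these counts rested on single libraries. Genes higher in EO771 numbered 5 or 4 without EO771 library 1 or 2, 6 or 7 without LL2 library 1 or 2, and 21 without Pan02 library 2. Genes lower in EO771 numbered 0 without EO771 library 2, 2 without MC38 library 2 and 4 without Pan02 library 1. Genes higher in LL2 numbered 0 without either LL2 library, 1 without either EO771 library and 5 without Pan02 library 2. Genes lower in LL2 numbered 0 without either LL2 library, 3 without either EO771 library, 10 without MC38 library 1 or Pan02 library 2 and 17 without Pan02 library 1. Genes lower in Pan02 numbered 22 without Pan02 library 2, and genes higher in Pan02 numbered 11 without Pan02 library 1, 0 without Pan02 library 2 and 1 without any 1 of the EO771 or LL2 libraries. In MC38 the genes higher ranged from 3 to 11 (11 without Pan02 library 2; 3 without EO771 library 1, either LL2 library or MC38 library 2) and the genes lower from 2 (without MC38 library 1) to 9 (without Pan02 library 1). Of the 39 calls of 1 gene in 1 model, 12 held under the other scaling, pseudocount, filter, transcript and replicate settings and with each library left out, and these are given first. A log2 fold change of at least 1 was reached by 8 of the 39 and by 6 of the 12.

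Ccne1 was at 27.9 and 32.9 RPKM in EO771, 7.62 and 7.91 in LL2, 12.5 and 9.28 in MC38, and 7.03 and 5.97 in Pan02. EO771 CAFs exceeded the rest, as EO771 tumors did, with log2 fold changes of 1.77 in EO771 (SE 0.14, adjusted p = 9.8e-05) and -0.98 in Pan02 (SE 0.14, adjusted p = 0.00098). Cdt1 was at 62 and 60.9 RPKM in EO771, 37.2 and 39.3 in LL2, 35.1 and 40.1 in MC38, and 15.1 and 19.3 in Pan02. It was higher in EO771 (1.05, SE 0.12, adjusted p = 0.00044) and lower in Pan02 (-1.33, SE 0.12, adjusted p = 0.00011), with LL2 and MC38 together between them. Cenpa was at 48.6 and 55.5 RPKM in EO771, 17.6 and 20.7 in LL2, 34.7 and 27.9 in MC38, and 16.5 and 24.6 in Pan02. Cenpa was higher in EO771 (1.15, SE 0.17, adjusted p = 0.0014). Rrm1 was at 37.6 and 38.9 RPKM in EO771, 17.7 and 18 in LL2, 14.5 and 12.9 in MC38, and 19 and 32.4 in Pan02, higher in EO771 (1.03, SE 0.18, adjusted p = 0.003) and lower in MC38 (-0.87, SE 0.18, adjusted p = 0.0047), where its partner Rrm2 stood at 0.17 (adjusted p = 0.54). E2f1 was at 16.5 and 16.8 RPKM in EO771, 20.1 and 23 in LL2, 33.7 and 30.2 in MC38, and 11.6 and 14.8 in Pan02. It was higher in MC38 (0.89, SE 0.12, adjusted p = 0.00067) and lower in Pan02 (-0.73, SE 0.12, adjusted p = 0.002). Gins2, uncertain because of its overlap with Gse1, did the same (0.92 and -1.10). Mcm4 was lower in MC38 (-0.80, SE 0.16, adjusted p = 0.0038), at 16.7 and 18.4 RPKM in EO771, 27.9 and 29.2 in LL2, 11 and 13 in MC38, and 16.4 and 25 in Pan02.

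**Figure D4:**
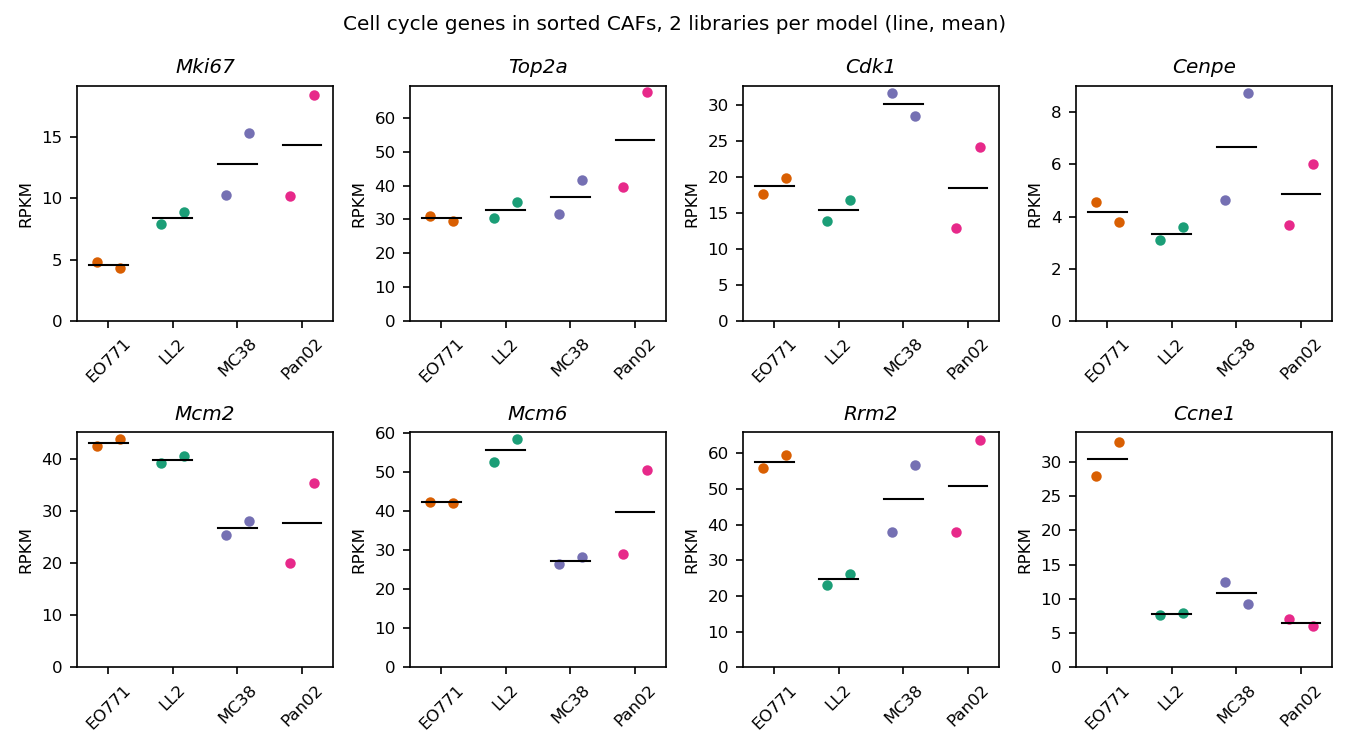
RPKM of 8 of the genes in both CAF libraries of each of the 4 models (points) with their mean (line), on linear axes that start at 0. EO771 CAFs stand apart in Ccne1, and the 2 Pan02 libraries lie far apart in most of the other genes.

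The remaining CAF calls were each lost under at least 1 setting. Mki67 was at 4.82 and 4.28 RPKM in EO771, 7.89 and 8.91 in LL2, 10.3 and 15.3 in MC38, and 10.2 and 18.5 in Pan02. EO771 CAFs were lowest, as EO771 tumors were (-1.15, SE 0.23, adjusted p = 0.0048; lost without EO771 library 2), and Pan02 was higher (0.73, adjusted p = 0.029; lost without Pan02 library 2, any 1 of the EO771 or LL2 libraries, or the low-value filter). Top2a was at 30.9 and 29.7 RPKM in EO771, 30.5 and 35.3 in LL2, 31.5 and 41.6 in MC38, and 39.6 and 67.6 in Pan02. Nusap1, Top2a and Kif11 were higher in Pan02 (0.70, 0.63 and 0.87), and all 3 calls were lost without Pan02 library 2.

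In LL2 CAFs 3 of 24 mitotic genes were lower, a share below that of all genes (18.3%): Aurka, Tpx2 and Cenpa (-0.61, -0.64 and -0.72), and each call was lost without either LL2 library. Aurka was at 22 and 26.8 RPKM in EO771, 11.6 and 14.4 in LL2, 23.3 and 24.3 in MC38, and 11.2 and 18.2 in Pan02. Ccna2 was at 26 and 29.2 RPKM in EO771, 12.9 and 15.7 in LL2, 14.1 and 18.3 in MC38, and 15.1 and 29 in Pan02. Ccnb1 was at 14.9 and 16.8 RPKM in EO771, 7.82 and 9.17 in LL2, 12.1 and 13.6 in MC38, and 9.49 and 18.1 in Pan02. EO771 was called higher in Aurka (0.54) and Ccna2 (0.68), both lost without either EO771 or either LL2 library, and no model was called in Ccnb1. Cdk1 was at 17.7 and 19.9 RPKM in EO771, 13.9 and 16.8 in LL2, 31.6 and 28.5 in MC38, and 12.9 and 24.1 in Pan02, higher in MC38 (0.77, adjusted p = 0.016; lost without MC38 library 1). Plk1 was at 21.3 and 26.4 RPKM in EO771, 15.6 and 18.3 in LL2, 28.4 and 29.7 in MC38, and 17.9 and 37.1 in Pan02. Foxm1 was at 22.4 and 23 RPKM in EO771, 11.5 and 12.1 in LL2, 13.4 and 17 in MC38, and 13 and 22.4 in Pan02. Cdc20 was at 62.9 and 65.9 RPKM in EO771, 31 and 38.7 in LL2, 52.3 and 44.1 in MC38, and 29.5 and 52.3 in Pan02. For Plk1 the 2 Pan02 libraries spanned both EO771 libraries and neither it nor any other model was called, while Foxm1 (0.61) and Cdc20 (0.66) were higher in EO771, calls lost without either EO771 library or LL2 library 1.

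Of the MCM genes, Mcm6 was at 42.4 and 42.1 RPKM in EO771, 52.6 and 58.6 in LL2, 26.5 and 28.2 in MC38, and 29 and 50.7 in Pan02. It was higher in LL2 (0.63, adjusted p = 0.039; lost without any 1 of the EO771 or LL2 libraries) and lower in MC38 (-0.69, adjusted p = 0.016; lost without MC38 library 1). Mcm2 was at 42.4 and 43.8 RPKM in EO771, 39.2 and 40.5 in LL2, 25.3 and 28.1 in MC38, and 20.0 and 35.3 in Pan02. Mcm5 was at 36.3 and 40.2 RPKM in EO771, 27.8 and 29.6 in LL2, 36 and 36.2 in MC38, and 17.5 and 32.1 in Pan02. Neither was called in any model. Rrm2 was at 55.9 and 59.5 RPKM in EO771, 23.1 and 26.2 in LL2, 38 and 56.6 in MC38, and 37.9 and 63.8 in Pan02. It was lower in LL2 (-1.02, adjusted p = 0.011; lost without either LL2 library). Pcna was at 83.7 and 92.8 RPKM in EO771, 87.8 and 99.8 in LL2, 83.1 and 81.5 in MC38, and 63.9 and 81 in Pan02. Tyms was at 5.97 and 6.82 RPKM in EO771, 4.35 and 5.41 in LL2, 7.10 and 6.38 in MC38, and 6.03 and 9.16 in Pan02. Tk1 was at 42.3 and 47.4 RPKM in EO771, 31.3 and 39.8 in LL2, 51.6 and 40.1 in MC38, and 23.8 and 43.4 in Pan02. None of these 3 was called in any model, and the same held for the next 3 genes. Uhrf1 was at 32.9 and 34.5 RPKM in EO771, 33.5 and 37.6 in LL2, 21.8 and 31.3 in MC38, and 19.9 and 32.6 in Pan02. Cdc6 was at 3.31 and 3.89 RPKM in EO771, 4.60 and 5.17 in LL2, 3.02 and 5.29 in MC38, and 3.81 and 5.75 in Pan02. E2f2 was at 3.70 and 3.70 RPKM in EO771, 2.33 and 2.25 in LL2, 2.69 and 3.70 in MC38, and 2.75 and 3.36 in Pan02. Pan02 library 1 was the lowest of the 8 in Uhrf1. Ccne2 was at 4.34 and 5.24 RPKM in EO771, 2.40 and 2.31 in LL2, 2.31 and 4.68 in MC38, and 2.21 and 2.81 in Pan02, and its rise in EO771 (0.64) was lost without either EO771 library, either LL2 library or Pan02 library 1.

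The pair of Pan02 CAF libraries stood apart from the other pairs in the size of its difference. Library 2 exceeded library 1 in 42 of the 43 genes, the exception being Ccne1, by a median of 1.73 times where the median over all genes was 1.06. The medians were 1.07 in EO771 and 1.13 in LL2 and MC38, against 1.02, 1.09 and 0.97 over all genes. Library 2 was the higher in 41 genes in LL2, 33 in EO771 and 31 in MC38, so the direction was not particular to Pan02. Fibroblast markers summed to 11980 ppm in library 1 and 7238 ppm in library 2, and epithelial markers to 2610 and 3420 ppm, and their part in the difference was not tested. In the MC38 pair fibroblast markers summed to 16961 ppm in library 1 and 4913 ppm in library 2. Within libraries, with values centred on each gene's mean over the 8 CAF libraries, the difference of mitotic minus G1/S medians was -0.48 and -0.38 in LL2 CAFs, 0.10 and 0.07 in EO771, 0.08 and 0.10 in MC38, and -0.0023 and 0.27 in Pan02. Both LL2 libraries lay below the other 6. These differences give a library's place among the CAFs and are not on one reference with those of the tumors.

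Tumors and CAFs were set side by side on 1 scale, RPKM over the same transcripts as ppm, with no test because the 2 tables were made separately. The 43 genes summed to 4245 to 6286 ppm in B16 tumors, 5075 to 5859 in MC38, 3831 to 4117 in LL2, 3509 to 4119 in EO771 and 1485 to 2577 in Pan02. In CAFs they summed to 2965 and 3095 ppm in EO771, 2446 and 2551 in LL2, 2479 and 3289 in MC38 and 2026 and 3417 in Pan02. The 2 Pan02 CAF libraries spanned all 6 libraries of the other models, while the 3 Pan02 tumors lay below the other 12. CAFs of EO771, LL2 and MC38 held less than any tumor of their model, and in Pan02 the CAF libraries and tumors overlapped. Per gene, the mean of CAFs over tumors had a median of 0.51 in MC38 (43 of 43 genes under 1), 0.61 in LL2 (41 under 1), 0.77 in EO771 (37 under 1) and 1.46 in Pan02 (39 over 1), where medians over all genes were 0.84, 0.90, 0.77 and 1.06. The EO771 ratio was that of all genes. In Pan02 the ratio ran from 0.87 for Cdt1 to 2.86 for Ccnb1, and in MC38 from 0.27 for Rrm2 to 0.90 for Tk1.

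**Figure D5:**
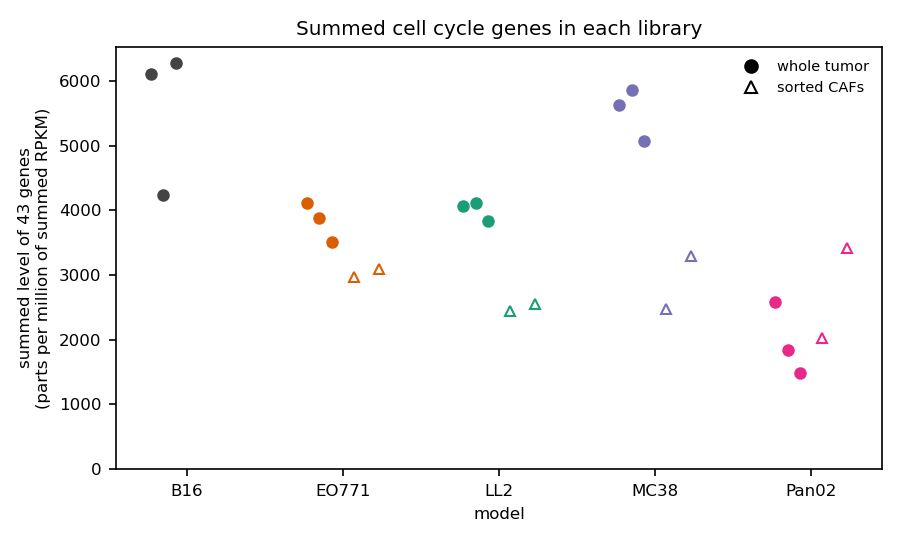
Summed level of the 43 genes in each library, in ppm of the summed RPKM, for whole tumors (filled circles) and sorted CAFs (open triangles) by model, on an axis that starts at 0. Tumors range from 1485 ppm in Pan02 to 6286 ppm in B16, while CAFs of all models lie between 2026 and 3417 ppm.

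Several model differences were called in both kinds of sample. In EO771, 6 genes were higher in both tumors and CAFs: Ccne1, Ccne2, Cdt1, Cenpa, Rrm1 and Tpx2. They made up 85.7% of 7 tumor calls and 50% of 12 CAF calls, against 59.5 and 69.9% over the 13208 genes tested in both. Mki67 was lower in both, which is 9.09% of 11 tumor calls and the only CAF call, against 61.8 and 61.2% over all genes. In MC38 all 5 genes higher in CAFs were also higher in tumors: Aurka, Cdk1, E2f1, Gins2 and Ube2c. They made up 20.0% of 25 tumor calls, and over all genes 52.6% of CAF calls and 52.8% of tumor calls were shared. Cenpf was lower in both, which is the only tumor call and 20.0% of 5 CAF calls, against 57.3 and 47.5% over all genes. In LL2, Mcm4 and Mcm6 were higher and Ccne1 and Rrm2 lower in both, which is both of the higher CAF calls and 40.0% of 5 lower ones. Over all genes, 71.8% of higher and 51.2% of lower CAF calls were shared. All 5 genes lower in Pan02 CAFs (Ccne1, Cdt1, Cenpa, E2f1 and Gins2) were lower in Pan02 tumors, as all 43 were there, and 51.9% of all genes lower in Pan02 CAFs were lower in the tumors. Calls of opposite direction were Cenpa in LL2 and Mcm4 and Mcm6 in MC38, higher in tumors and lower in CAFs, and Mki67, Top2a, Nusap1 and Kif11 in Pan02, lower in tumors and higher in CAFs. Because all 43 genes were lower in Pan02 tumors, any gene higher in Pan02 CAFs had to be of opposite direction. These 4 CAF calls were lost without Pan02 library 2. Opposite calls were not counted over all genes. Tumors were set against 4 other models and CAFs against 3, so the sizes are not on a par. Of the genes named here, Ccne2, Cenpa, Tpx2 and Mcm6 were tested on different transcripts in tumors and CAFs. Beside these calls stand genes that tell the tumors of the models apart. For each model, 10 genes restricted to its tumors, chosen on the tumor values, were summed. Those of EO771 came to 3344 ppm in its tumors and to 2469 and 2411 ppm in its CAFs. Those of LL2 came to 950 ppm in tumors and 699 and 748 in CAFs, those of MC38 to 605 and 384 and 557, and those of Pan02 to 3470 and 1849 and 2161. The gene with the largest part in CAFs was Esx1 in EO771 (2327 ppm in tumors, 1856 and 1801 in CAFs) and Dkk2 in LL2 (288, 374 and 406). In MC38 it was Fam159b (231, 147 and 178) and in Pan02 Igf2 (908, 1045 and 1208). Dkk2 and Igf2 were higher in CAFs than in tumors, so the sums do not measure the purity of a sort. CAFs of the other models held at most 92.0 ppm of any of these sums, and the B16 genes at most 1.57 ppm. The sorted libraries therefore carried RNA of genes that separate the whole tumors of their own model from those of others, and its part in the levels of cell cycle genes in CAFs was not tested.

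The 157 other genes of the pathway in CAFs numbered 27 higher and 16 lower in EO771, 9 and 17 in LL2, 39 and 32 in MC38 and 24 and 33 in Pan02, and 91 differed among the models. Each of these counts is a smaller share than that of all genes given above for the CAFs (80.4% for the difference among models). Cdkn2a (p16 and p19) was at 2.79 and 2.35 RPKM in EO771, 0.6 and 0.85 in LL2, 9.58 and 11.9 in MC38, and 0.9 and 0.85 in Pan02 and Cdkn2b (p15) at 4.86 and 3.79 RPKM in EO771, 1.32 and 0.87 in LL2, 16 and 15.6 in MC38, and 3.11 and 1.79 in Pan02. Both were higher in MC38 (2.37, SE 0.13, adjusted p = 2.1e-05, and 2.33, SE 0.18, adjusted p = 6.1e-05) and lower in LL2 (-1.31 and -1.69). Cdkn2a lay under 1 RPKM in Pan02 CAFs as well as in LL2 CAFs, so its low level was not particular to LL2. Cdkn1a was at 158 and 169.7 RPKM in EO771, 78.2 and 83.9 in LL2, 23.2 and 19.3 in MC38, and 47.1 and 22.9 in Pan02, higher in EO771 (2.06, SE 0.24, adjusted p = 0.00048) and lower in MC38 (-1.80). Cdkn2c was at 8.57 and 8.26 RPKM in EO771, 12.5 and 13.9 in LL2, 14.5 and 14.6 in MC38, and 36.4 and 50.8 in Pan02 and Ccng2 at 7.78 and 8.29 RPKM in EO771, 14.2 and 15.6 in LL2, 5.54 and 9.54 in MC38, and 30.9 and 27.1 in Pan02. Both were higher in Pan02 (1.78 and 1.5), the model in which their levels were also raised in whole tumors.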

How the data were processed

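RNA was measured by poly(A), unstranded sequencing of 15 whole tumors (5 models, 3 tumors each) and 8 libraries of sorted CAFs (4 models, 2 each). Reads were aligned by the authors with STAR 2.5.0c to mm10 and counted on RefSeq transcripts of both strands with HOMER. The authors deposited expected counts for tumors, 1 value per transcript, which need not be whole and were rounded up here. For CAFs the authors deposited RPKM values, and neither counts nor depth are known. CAF libraries were matched to samples by model name and number. In the tables, 5 further sample columns were not used here. Of 40458 transcripts, the 1 with the largest mean was kept per symbol (24940 symbols, 2 rows without a name left out). Of the 43 genes, 10 were represented by different transcripts in the 2 tables. Levels in ppm were set on the same transcript for tumors and CAFs. The tests, and so the calls compared between tumors and CAFs, used the transcript kept in each table.

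Tumors were tested with edgeR 4.0.16 (filterByExpr, TMM scaling, quasi-likelihood F test, 1 term per model), over 15732 genes, and CAFs with limma 3.58.1 (trend) on log2(RPKM + 1) over 13598 genes with at least 1 RPKM in 2 libraries. Fold changes of CAFs are on that log scale and understate changes of low genes. A call needed an adjusted p under 0.05 (Benjamini-Hochberg over all genes tested). All 43 genes passed both filters on low values. R 4.3.3, Python 3.11.15, pandas 2.3.3 and matplotlib 3.10.9 were used. On simulated data with the tumor counts' means (B16 comparison, 15732 genes), edgeR found 75 of 100 genes changed 2-fold and 100 of 100 changed 4-fold, with 4 false calls. On simulated CAF values limma (MC38 CAFs, 13598 genes) found 100 of 100 of each, with 19 false calls. Both simulations gave every gene and library the same spread and held no differences between models besides those set. The numbers of genes found therefore do not carry over to the real libraries. The 43 genes, the 157 further cell cycle genes in 10 lists and the marker lists were chosen with earlier results of these data known. Any of the 43 genes could be named, with values in every sample for 23 set genes and the largest changes of each comparison, and of the 157 up to 3 called genes with the largest rise or fall per comparison (mean of at least 10 CPM or 1 RPKM where higher). Genes sharing exons with a neighbour are given with the shared share. Alternatives were DESeq2 1.42.0, total-count scaling, median-of-ratios scaling, a pseudocount of 0.1, no filter on low values, the longest transcript, a replicate block, a log2 fold change of at least 1 and each library left out.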

Additional observations from a re-analysis of the deposited data

How the results depend on the processing

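No call of 1 of the 43 genes in 1 model changed direction under any alternative or with any library left out. Results named without a call were not checked for direction. The cause of each shift below was not tested. Each call of 1 gene in 1 model was counted once per setting. For tumors, 623 of these counts kept and 12 lost the call under other processing, the rule on fold change not included. With a tumor left out, 1798 kept and 107 lost it. For CAFs these numbers were 178, 17, 228 and 84. Calls that held under every one of these settings numbered 98 of 127 in tumors and 12 of 39 in CAFs. With a log2 fold change of at least 1 also required, 42 of 127 tumor calls and 8 of 39 CAF calls were left. By that rule 5 genes were higher in B16 tumors, 2 higher and 1 lower in EO771 tumors, 0 and 0 in LL2 tumors, and 5 and 0 in MC38 tumors. The same rule left 4 genes higher in EO771 CAFs, 0 higher and 1 lower in LL2 CAFs, 0 and 0 in MC38 CAFs and 0 and 2 in Pan02 CAFs. Without the filter on low values, 7 genes were lower in EO771 tumors, 6 higher in EO771 CAFs, 1 higher and 3 lower in LL2 CAFs, 3 higher in MC38 CAFs and 1 higher in Pan02 CAFs. With median-of-ratios scaling 2 genes were lower in EO771 CAFs, 8 in LL2 CAFs and 9 in Pan02 CAFs. Total-count scaling shifted the median of all genes by 0.14 in MC38 and -0.11 in Pan02 tumors (log2). With a tumor left out, genes that differed numbered 42 to 43, genes higher in B16 24 to 33, in EO771 5 to 10, in LL2 3 to 12, in MC38 20 to 32 and in Pan02 0, and genes lower in B16 0, in EO771 3 to 12, in LL2 2 to 5, in MC38 1 and in Pan02 42 to 43. With a CAF library left out, genes that differed numbered 8 to 32 (8 without LL2 library 1, 12 without LL2 library 2 or EO771 library 2, 30 and 32 without Pan02 library 1 or 2), genes higher in EO771 4 to 21, in LL2 0 to 5, in MC38 3 to 11 and in Pan02 0 to 11, and genes lower in EO771 0 to 4, in LL2 0 to 17, in MC38 2 to 9 and in Pan02 4 to 22. Where a model kept 1 CAF library, that library was taken to vary like those of the other models. With the replicate block, 10 genes were lower in LL2 CAFs and 8 in Pan02 CAFs, and the other counts stayed within 1.5 times. Correlations of the deviations of same-numbered samples ran from -0.165 to 0.263 over 30 tumor pairs (9 above 0.1), and the numbers were not taken to pair the tumors. Over 12 CAF pairs they ran from -0.143 to 0.277 (6 above 0.1). With 2 libraries per model the deviations are opposites, so each CAF value appears for library 1 and library 2 alike. These values cannot decide whether the numbers pair the CAF libraries, and the main test left them unpaired. The CAF table gives no depth.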
